A study of Mus musculus with 12 samples.

Results

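The 40 genes described here encode enzymes, and core partners of enzymes, that add methyl groups to histone lysines and arginines or remove them from lysines. They were taken by gene name from the deposited expression tables: 5 Polycomb genes (Ezh1, Ezh2, Eed, Suz12, Jarid2), 16 lysine methyltransferases, 16 lysine demethylases and 3 arginine methyltransferases, out of 53932 gene identifiers. All 40 were found in each of the 12 libraries and all 40 were tested, 39 of them at 1 FPKM or more in 12 libraries and Suv39h2 in 9. FPKM counts sequenced fragments per length of transcript and per amount sequenced, so levels of different genes can be set side by side.

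The libraries were made from total RNA of cultured C57BL/6 mouse cells, 3 in each of 4 groups. NSC, neural stem cells, were neurospheres from cortex of E14.5 that were fed EGF and FGF2, each at 20 ng/mL. Astrocytes, labelled as cortex of E14.5, were kept in medium with 10% serum, and the protocol names either postnatal cortex sorted for GLAST or differentiated neurospheres as their source. MIM-Astrocytes went from such medium into MIM, a medium without serum that holds FGF2 at 20 ng/mL and as many as 6 metabolites (methionine, threonine, glycine, putrescine, S-adenosylmethionine, cysteine), and were taken no later than the fifth day. The mixture of metabolites, the exact day and the source of the astrocytes in these libraries are not given, so serum, FGF2 and metabolites cannot be told apart. Glioblastoma carries the labels cerebella and E18.5, and the derivation of the tumour culture is not described. Nothing in the labels makes the 3 libraries of a group separate cultures or animals, and the p-values below thus measure no more than the spread of these libraries.

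Histone methyltransferases take their methyl group from S-adenosylmethionine, which cells make from methionine and which links these enzymes to one-carbon metabolism. Polycomb repressive complex 2 (PRC2) methylates lysine 27 of histone H3 and keeps developmental genes silent. Methylation of lysine 9 marks heterochromatin, that of lysine 4 marks promoters and enhancers in use, and that of lysines 36 and 79 follows transcription. Demethylases of the LSD1 family work with FAD and those of the JmjC family with iron, oxygen and 2-oxoglutarate. In the developing cortex PRC2 and the H3K9 enzymes are known for their part in the timing of neurogenesis and gliogenesis.

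Each library held 14461 to 14919 genes at 1 FPKM or more. Gfap, the astrocyte filament gene, stood at 258 ± 16.1 FPKM in Astrocytes, 7.35 ± 0.207 in MIM-Astrocytes, 3.20 ± 0.310 in Glioblastoma and 0.964 ± 0.169 in NSC (each the mean ± SD of n = 3, as throughout). Of 12 astrocyte markers 5 rose in MIM-Astrocytes over Astrocytes and 4 fell. Among those that fell were Gfap, Aqp4 (from 397 ± 27.7 to 35.5 ± 1.20 FPKM) and Clu (from 848 ± 86.7 to 94.4 ± 8.15). Among those that rose, S100b went from 5.97 ± 0.573 to 25.4 ± 0.761 FPKM and Glul, the glutamine synthetase gene, from 286 ± 30.7 to 971 ± 92.9. The 12 summed to 7675 to 9447 FPKM in Astrocytes, 9656 to 11230 in MIM-Astrocytes, 4345 to 5164 in NSC and 705 to 741 in Glioblastoma. The sum of 12 neural stem and progenitor markers was 937 to 1139 FPKM in Astrocytes, 4422 to 4801 in MIM-Astrocytes, 3027 to 3547 in NSC and 1083 to 1227 in Glioblastoma. By gene, 9 of these 12 rose in MIM-Astrocytes over Astrocytes and 3 fell (Msi1, Prom1, Pax6). Against NSC 3 were higher and 2 lower. Of all genes tested 34.8% rose over Astrocytes and 26.6% fell. A sum weighs abundant genes most, so the similar sums of Astrocytes and Glioblastoma do not mean similar levels by gene. In Glioblastoma 6 of these 12 were higher than in Astrocytes and 3 lower (all genes tested: 47.0% and 31.3%). Among the higher, Hes5 stood at 0.684 FPKM on average in Astrocytes and 91.4 in Glioblastoma. In NSC 9 were higher than in Astrocytes and 2 lower (all genes tested: 37.7% and 33.4%). Microglia markers summed to at most 1.29 FPKM in any library and endothelial and mural markers to at most 2.71. Markers of meningeal fibroblasts (8 genes) summed to 280 to 328 FPKM in Astrocytes, 19.4 to 22.1 in MIM-Astrocytes, 1.09 to 1.37 in NSC and 0.654 to 0.830 in Glioblastoma, with Ogn at 164 ± 16.4 FPKM and Lum listed at 0 in Astrocytes. This list moves with every comparison against Astrocytes, and its part in the results was not tested. In bulk RNA a smaller share of cells of a type and less RNA per cell cannot be told apart.

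Of the 40 genes, 28 had their lowest group mean in Astrocytes, where 38.1% of all genes tested had theirs. NSC held the highest mean of 21, against 18.4% of genes tested, Glioblastoma of 15, against 41.4%, MIM-Astrocytes of 2 (Kmt2a, Kmt2d) and Astrocytes of 2 (Ezh1, Setd7). The median of the 40 group means was 10.5 FPKM for Astrocytes, 13.0 for MIM-Astrocytes, 16.1 for NSC and 16.8 for Glioblastoma. These ranks and medians use FPKM as deposited, with no scaling between libraries. With each library set to a common FPKM total, the median log2 difference of the 40 in Glioblastoma against NSC went from -0.075 to -0.263. Of the 15 highest in Glioblastoma, Ezh2, Setd1b, Setdb1, Suv39h1, Ehmt2, Dot1l and Kdm5a then lay below NSC. The most abundant gene was Setd7 in Astrocytes (98.7 ± 2.23 FPKM), Prmt1 in MIM-Astrocytes (46.2 ± 7.89) and in Glioblastoma (70.4 ± 3.44), and Kdm3a in NSC (64.0 ± 1.32). Suv39h2, Setd1b, Setdb2, Kdm6b and Setd1a were among the 3 least abundant in at least 1 group.

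**Figure D1:**
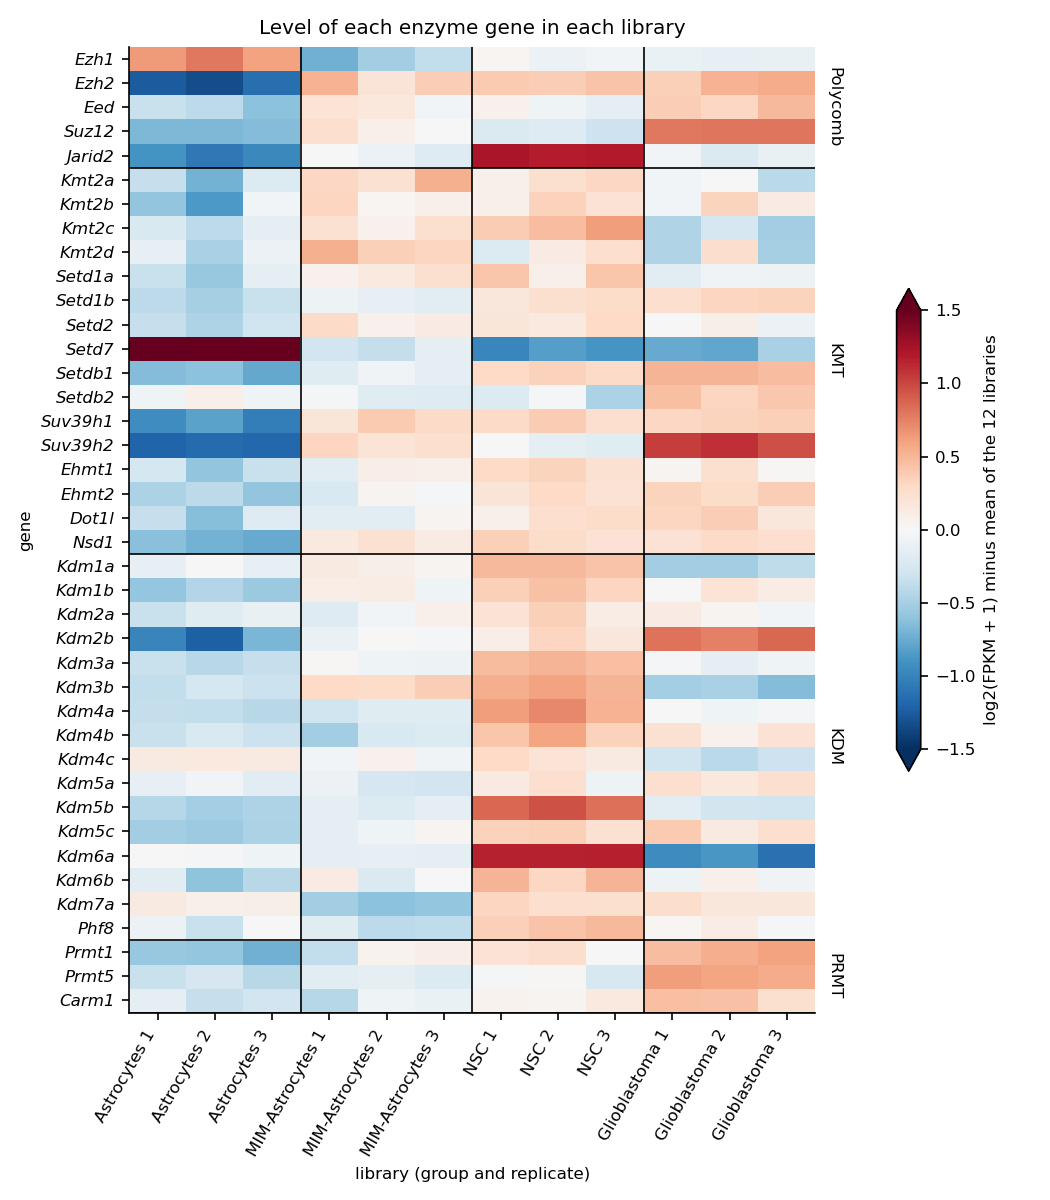
Level of the 40 genes (rows, by enzyme class) in the 12 libraries (columns), as log2 of FPKM plus 1 minus the mean of that gene over the libraries, with red above and blue below that mean. The Astrocytes columns are blue for most genes and deep red for Setd7 (98.7 ± 2.23 FPKM), and the NSC columns are red for most demethylases.

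In MIM-Astrocytes 28 of the 40 genes were higher than in Astrocytes and 4 were lower, at an adjusted p below 0.05 in limma on log2 of FPKM plus 1, where 34.8% of the 16982 genes tested were called higher and 26.6% lower (61.4% either way). The median difference of the 40 was 0.40 on the log2 scale, and that of all genes tested was 0.09. By class, 4 of 5 Polycomb genes rose and 1 fell, 14 of 16 lysine methyltransferases rose and 1 fell, 9 of 16 demethylases rose and 2 fell, and 1 of 3 arginine methyltransferases rose. With each library set to a common FPKM total, which shifts the median of all genes by -0.26, the split became 10 higher and 9 lower. The 10 were Setdb1, Suz12, Nsd1, Suv39h2, Kdm2b, Ezh2, Kdm1b, Jarid2, Kdm3b and Suv39h1, and with the falling Ezh1, Setd7, Kdm7a and Kdm4c they were called under each of the 4 other scalings.

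In NSC against Astrocytes 35 genes were higher and 2 lower (background 37.7% higher, 33.4% lower, 71.2% either way), and with a common total, a shift of -0.31, 20 and 4. In Glioblastoma against Astrocytes 28 were higher and 6 lower (background 47.0%, 31.3% and 78.3%). There the common total shifts the median of all genes by -0.49 and gave 12 higher and 13 lower, and median-of-ratios scaling, a shift of -0.24, gave 17 and 8. These 3 comparisons share the Astrocytes libraries. Against NSC, 3 genes were higher in MIM-Astrocytes and 23 lower (background 31.0%, 24.9% and 55.9%), and 10 were higher in Glioblastoma and 15 lower (background 44.8%, 25.1% and 69.9%). The last split became 5 and 24 under median-of-ratios scaling, 4 and 26 under quantile normalization, 5 and 20 with a common total and 4 and 25 with a common protein-coding total. The comparisons against NSC share the NSC libraries. Called differences of at least 1 on the log2 scale of FPKM plus 1 were few in MIM-Astrocytes: 3 higher (Suv39h2, Ezh2, Suv39h1) and 2 lower (Ezh1, Setd7) than in Astrocytes, where 17.5% of genes tested differed by that much, and none higher and 3 lower (Kdm6a, Jarid2, Kdm5b) than in NSC, against 9.89%. In plain FPKM, Jarid2 (2.03-fold) and Kdm2b (2.02-fold) also passed 2-fold over Astrocytes.

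**Figure D2:**
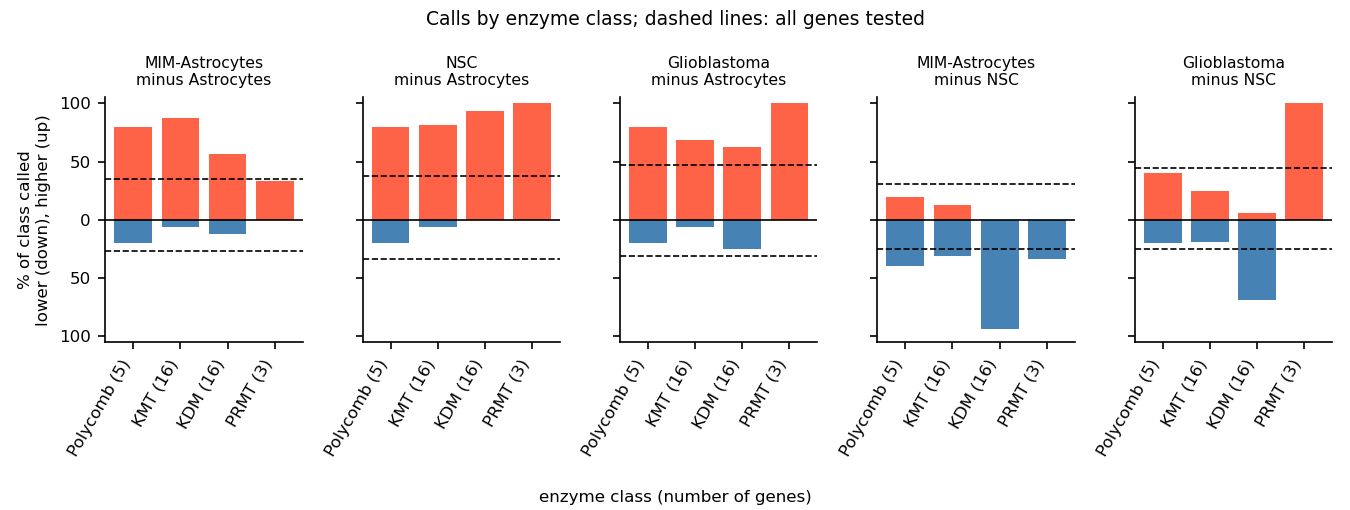
Share of each enzyme class (number of genes in brackets) called higher (red, upward, in %) or lower (blue, downward, in %) in the 5 comparisons, with dashed lines at the share of all 16982 genes tested. The demethylase bar points up in NSC against Astrocytes (15 of 16 higher) and down in MIM-Astrocytes against NSC (15 of 16 lower).

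The catalytic subunits of PRC2 moved in opposite directions. Ezh2, the catalytic subunit prevalent in dividing cells (ENSMUSG00000029687.16, GRCm38, chromosome 6, 47530139 to 47595341, minus strand), stood at 10.3, 9.65 and 11.2 FPKM in the Astrocytes libraries, at 37.6, 29.8 and 33.6 in MIM-Astrocytes, at 34.3, 33.5 and 35.1 in NSC and at 33.2, 37.4 and 38.3 in Glioblastoma. Every library outside Astrocytes lay above every Astrocytes library, and the other 3 groups overlapped one another. Ezh2 was 3.24-fold higher in MIM-Astrocytes than in Astrocytes (log2 1.60, SE 0.09, adjusted p = 8.65e-08), and the difference from NSC did not pass the test (log2 -0.03, SE 0.09, adjusted p = 0.775). Ezh1, the paralogue prevalent in resting cells (ENSMUSG00000006920.14, chromosome 11, 101191115 to 101226463, minus strand), read 10.4, 11.6 and 10.1 FPKM in Astrocytes, 3.43, 4.07 and 4.65 in MIM-Astrocytes, 6.43, 5.83 and 6.06 in NSC and 5.82, 5.71 and 5.74 in Glioblastoma. Astrocytes were the highest group and MIM-Astrocytes the lowest, with no overlap between these and the other 2. Ezh1 was 2.64-fold lower in MIM-Astrocytes than in Astrocytes (log2 -1.22, SE 0.08, adjusted p = 5.33e-07) and also below NSC (log2 -0.50, SE 0.08, adjusted p = 0.000564). The ratio of Ezh2 to Ezh1 in FPKM was 0.980 ± 0.140 for Astrocytes, 8.50 ± 2.12 for MIM-Astrocytes, 5.63 ± 0.251 for NSC and 6.31 ± 0.528 for Glioblastoma. Scaling a library by 1 factor does not alter this ratio, whereas quantile normalization can.

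The non-catalytic PRC2 genes Suz12, Eed and Jarid2 all rose in MIM-Astrocytes over Astrocytes. Suz12, a core subunit (ENSMUSG00000017548.15, chromosome 11, 79993106 to 80034123, plus strand), was at 8.59, 8.57 and 8.70 FPKM in Astrocytes, 17.2, 15.1 and 14.2 in MIM-Astrocytes, 12.1, 12.3 and 11.3 in NSC and 25.3, 25.6 and 25.6 in Glioblastoma. The 4 groups did not overlap, in the order Glioblastoma, MIM-Astrocytes, NSC, Astrocytes. Suz12 rose in MIM-Astrocytes (1.80-fold, log2 0.77, SE 0.06, adjusted p = 2.03e-06) and was above NSC there (log2 0.35, SE 0.06, adjusted p = 0.000906), a call lost with a common protein-coding total. Eed, the subunit that reads the methyl mark, followed the same order of means at 14.5 ± 1.54, 21.7 ± 2.04, 19.3 ± 1.51 and 26.5 ± 1.67 FPKM in Astrocytes, MIM-Astrocytes, NSC and Glioblastoma, but MIM-Astrocytes and NSC overlapped (adjusted p = 0.183).

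Jarid2, which guides PRC2 to its targets and has no demethylase activity of its own (ENSMUSG00000038518.15, chromosome 13, 44729474 to 44921643, plus strand), had 4.74, 4.08 and 4.50 FPKM in Astrocytes, 9.67, 9.04 and 8.38 in MIM-Astrocytes, 24.0, 23.3 and 23.4 in NSC and 9.36, 8.17 and 8.88 in Glioblastoma. NSC stood alone at the top, Astrocytes alone at the bottom, and MIM-Astrocytes and Glioblastoma overlapped between them. Jarid2 was 2.03-fold higher in MIM-Astrocytes than in Astrocytes (log2 0.88, SE 0.07, adjusted p = 1.11e-06) yet 2.61-fold lower than in NSC (log2 -1.29, SE 0.07, adjusted p = 1.37e-07). In Glioblastoma it was 2.68-fold lower than in NSC (log2 -1.33, SE 0.07, adjusted p = 4.12e-08).

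**Figure D3:**
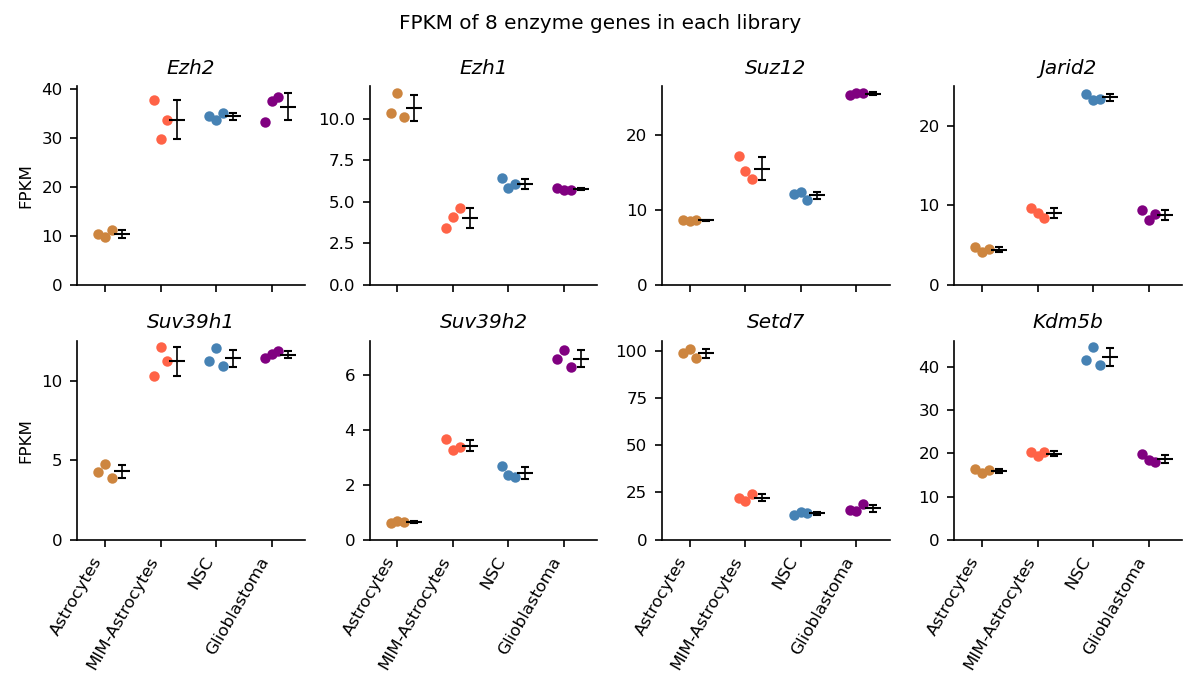
FPKM of 8 enzyme genes in each library (points, by group), with the mean and SD of the 3 libraries of a group (black). Astrocytes are lowest for Ezh2, Suz12, Jarid2, Suv39h1, Suv39h2 and Kdm5b and highest for Ezh1 and Setd7, while Jarid2 and Kdm5b peak in NSC at 23.6 ± 0.396 and 42.3 ± 2.11 FPKM.

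Of 8 further PRC2 subunits, 7 rose in MIM-Astrocytes and none fell, and against NSC 3 were higher and 2 lower. Of all genes tested 34.8% rose over Astrocytes and 26.6% fell, and against NSC 31.0% were higher and 24.9% lower. Mtf2, which recruits PRC2 to unmethylated CpG-rich DNA, went from 8.07 ± 0.314 to 15.7 ± 0.796 FPKM, and Rbbp4, a histone-binding subunit, from 44.0 ± 5.25 to 75.6 ± 4.79. Of 18 subunits of PRC1, the complex that binds the H3K27 mark and modifies H2A, 10 rose and 4 fell. Bmi1, a PRC1 subunit known for the self-renewal of neural stem cells, rose from 18.1 ± 1.63 to 40.8 ± 5.26 FPKM (adjusted p = 1.17e-05), and Cbx7, a reader of the mark, fell from 4.92 ± 0.572 to 2.30 ± 0.338 (adjusted p = 1.23e-05).

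The H3K9 methyltransferases Suv39h1 and Suv39h2, paralogues that trimethylate pericentric heterochromatin, both rose. Suv39h2 (ENSMUSG00000026646.16, chromosome 2, 3455815 to 3475031, minus strand) had 0.606, 0.667 and 0.633 FPKM in Astrocytes, 3.65, 3.26 and 3.36 in MIM-Astrocytes, 2.67, 2.35 and 2.27 in NSC and 6.58, 6.91 and 6.26 in Glioblastoma, so no 2 groups overlapped. It was 5.38-fold higher in MIM-Astrocytes than in Astrocytes (log2 1.43, SE 0.06, adjusted p = 1.06e-08), above NSC (1.41-fold, log2 0.36, SE 0.06, adjusted p = 0.000495), and 10.4-fold higher in Glioblastoma than in Astrocytes (log2 2.21, SE 0.06, adjusted p = 1.74e-10). Suv39h1 (ENSMUSG00000039231.18, chromosome X, 8061171 to 8074760, minus strand) read 4.28, 4.76 and 3.88 FPKM in Astrocytes, 10.4, 12.1 and 11.3 in MIM-Astrocytes, 11.3, 12.1 and 10.99 in NSC and 11.5, 11.7 and 11.9 in Glioblastoma. Only the Astrocytes libraries stood apart for Suv39h1, which rose 2.61-fold in MIM-Astrocytes (log2 1.21, SE 0.07, adjusted p = 1.58e-07). The ratio of Suv39h1 to Suv39h2 was 6.77 ± 0.561 for Astrocytes, 3.31 ± 0.444 for MIM-Astrocytes, 4.72 ± 0.471 for NSC and 1.78 ± 0.108 for Glioblastoma. Exons of Suv39h2 overlap those of Dclre1c on the opposite strand over 8.1% of their length, and those of Suv39h1 overlap Gm14820 over 14.6%. Whether the libraries kept strand is not stated, so reads there cannot be separated.

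Most genes of the cell cycle were also higher in each other group than in Astrocytes. All 28 genes of a cell cycle list rose in MIM-Astrocytes, and their summed level was 50.4 to 62.1 FPKM in Astrocytes, 1096 to 1159 in MIM-Astrocytes, 359 to 417 in NSC and 1119 to 1153 in Glioblastoma. Mki67, a marker of dividing cells, was at 0.112 ± 0.0151 FPKM in Astrocytes and 51.9 ± 0.887 in MIM-Astrocytes. The part of this list in the differences of Ezh2, Suz12, Suv39h1 and Suv39h2 was not tested.

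Promoters are shown for Ezh2, Suv39h1 and Suz12, because among the members found in the RefSeq promoter table they alone carry letters of the type bound by E2F, the factor family of the cell cycle, and for Setd7 as a member that fell and carries none. The windows run from 250 bases before to 50 after the start of transcription in GRCm38.p6, and 31 of the 40 genes matched, with 40 windows. The forms searched were TTTCCCGC, TTTGGCGC, TTTCGCGC and TTTGCCGC on both strands, shown in capitals as they read on the printed strand. The windows lie at chr6:47594981-47595280 on the minus strand for Ezh2, chrX:8074312-8074611 on the minus strand for Suv39h1, chr11:79992856-79993155 on the plus strand for Suz12 and chr3:51560774-51561073 on the minus strand for Setd7.
Ezh2: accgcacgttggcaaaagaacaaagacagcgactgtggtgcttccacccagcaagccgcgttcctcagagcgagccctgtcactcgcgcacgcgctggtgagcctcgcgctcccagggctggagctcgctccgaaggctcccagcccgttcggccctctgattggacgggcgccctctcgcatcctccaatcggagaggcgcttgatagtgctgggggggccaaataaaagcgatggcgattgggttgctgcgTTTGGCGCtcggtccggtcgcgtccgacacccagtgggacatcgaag
Suv39h1: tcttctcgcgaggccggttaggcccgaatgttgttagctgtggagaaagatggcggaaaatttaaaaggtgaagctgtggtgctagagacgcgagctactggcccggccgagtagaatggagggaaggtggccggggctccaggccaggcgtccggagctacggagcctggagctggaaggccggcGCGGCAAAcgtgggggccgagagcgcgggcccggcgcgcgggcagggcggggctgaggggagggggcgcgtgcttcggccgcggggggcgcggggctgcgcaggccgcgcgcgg
Suz12: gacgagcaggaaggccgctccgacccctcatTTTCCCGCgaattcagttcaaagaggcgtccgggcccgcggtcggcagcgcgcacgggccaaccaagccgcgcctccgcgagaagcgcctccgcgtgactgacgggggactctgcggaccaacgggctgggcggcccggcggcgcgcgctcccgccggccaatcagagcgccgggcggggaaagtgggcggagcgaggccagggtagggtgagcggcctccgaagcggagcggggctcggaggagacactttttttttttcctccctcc
Setd7: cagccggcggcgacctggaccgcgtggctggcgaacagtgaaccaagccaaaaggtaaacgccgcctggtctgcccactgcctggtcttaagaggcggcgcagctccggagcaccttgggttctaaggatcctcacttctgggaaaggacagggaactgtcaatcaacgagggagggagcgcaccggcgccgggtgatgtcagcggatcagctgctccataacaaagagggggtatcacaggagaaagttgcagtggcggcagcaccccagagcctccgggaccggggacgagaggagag
Counted with the first transcribed base as 1, the match begins at base 4 in Ezh2, at -64 in Suv39h1 (on the other strand) and at -219 in Suz12. Such letters occur in 3 of the 40 member windows (7.5%), in 3.92% of the windows of genes tested and in 2.26% of all 32851 windows. The printed windows of Ezh2, Suv39h1 and Suz12 hold 1 match each and that of Setd7 none. Suv39h1 has another window, at a different start, that carries no match and is not shown. Suv39h2, Jarid2 and Kdm2b, which also rose in MIM-Astrocytes, have windows without a match. The member windows were rich in CG: a median of 27.5 CG dinucleotides per window against 21 for genes tested and 7 for all windows, with 31 in Ezh2, 37 in Suv39h1, 41 in Suz12 and 21 in Setd7. A match is a description of letters, not evidence of binding.

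The other H3K9 methyltransferases differed less. Setdb1, which silences retroelements with the corepressor Trim28, had 8.05 ± 0.483 FPKM for Astrocytes, 12.3 ± 0.628 for MIM-Astrocytes, 17.0 ± 0.425 for NSC and 19.4 ± 0.386 for Glioblastoma, with no overlap between groups (MIM-Astrocytes against Astrocytes log2 0.55, SE 0.05, adjusted p = 6.50e-06). Ehmt2, the main H3K9 dimethylase, was at 34.4 ± 2.47, 46.1 ± 4.36, 57.3 ± 2.30 and 61.0 ± 1.95 FPKM in the same order, and its partner Ehmt1 at 14.3 ± 1.76, 19.0 ± 1.98, 23.3 ± 0.930 and 20.5 ± 1.88. Setdb2, a relative of Setdb1, had 2.898 ± 0.217 FPKM in Astrocytes and 2.60 ± 0.225 in MIM-Astrocytes, a difference that did not pass the test (adjusted p = 0.365; 0.0251, lower, with a common total). It was highest in Glioblastoma at 4.18 ± 0.228 FPKM, above 2.39 ± 0.536 in NSC (log2 0.62, SE 0.10, adjusted p = 0.000369). Of 11 partners of the H3K9 enzymes and of the CoREST complex, 8 rose in MIM-Astrocytes and 1 fell (all genes tested: 34.8% and 26.6%). Rcor2, the CoREST subunit that ties LSD1 to chromatin in neural progenitors, went from 1.04 ± 0.347 to 13.2 ± 0.476 FPKM against 30.7 ± 2.08 in NSC, Cbx3, a heterochromatin protein that reads H3K9 methylation, from 20.0 ± 3.34 to 68.1 ± 8.96, and Trim28 from 81.3 ± 7.98 to 157 ± 8.002.

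Of the 40 genes, Setd7 fell the most in MIM-Astrocytes. This enzyme monomethylates H3K4 and many proteins that are not histones (ENSMUSG00000037111.9, chromosome 3, 51515319 to 51560879, minus strand). Its levels were 98.8, 101 and 96.4 FPKM in Astrocytes, 21.9, 20.7 and 24.2 in MIM-Astrocytes, 13.2, 14.7 and 14.1 in NSC and 15.5, 15.3 and 18.9 in Glioblastoma. Astrocytes lay far above the other groups, and MIM-Astrocytes above NSC and Glioblastoma without overlap. Setd7 was 4.43-fold lower in MIM-Astrocytes than in Astrocytes (log2 -2.10, SE 0.08, adjusted p = 7.38e-09), 7.07-fold lower in NSC (log2 -2.74, SE 0.08, adjusted p = 7.35e-10) and 5.97-fold lower in Glioblastoma (log2 -2.51, SE 0.08, adjusted p = 8.32e-10), and these calls held under each scaling tried. In MIM-Astrocytes it stayed above NSC (1.60-fold, log2 0.64, SE 0.08, adjusted p = 0.000111).

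The large H3K4 enzymes of the MLL family rose together in MIM-Astrocytes. Kmt2a, the founding MLL protein, rose from 4.26 ± 0.916 FPKM in Astrocytes to 7.95 ± 0.979 in MIM-Astrocytes (log2 0.78, SE 0.15, adjusted p = 0.00108), next to 7.06 ± 0.636 in NSC and 5.33 ± 0.926 in Glioblastoma. Its relative Kmt2b had means of 3.87 ± 1.47, 6.41 ± 0.830, 6.78 ± 0.723 and 6.39 ± 0.980 FPKM in Astrocytes, MIM-Astrocytes, NSC and Glioblastoma. The enhancer enzyme Kmt2c had 20.4 ± 1.80, 27.9 ± 1.92, 34.9 ± 3.12 and 18.3 ± 1.94, and its paralogue Kmt2d 4.87 ± 0.860, 8.08 ± 0.695, 6.19 ± 1.12 and 5.03 ± 1.91. All 4 were called higher in MIM-Astrocytes than in Astrocytes and lost that call with a common total. Kmt2b also lost it without MIM-Astrocytes replicate 1 (adjusted p = 0.0501), and Kmt2d without that library or without Astrocytes replicate 2 (adjusted p up to 0.0743). Setd1a and Setd1b, which place most H3K4 trimethylation, rose from 1.82 ± 0.427 to 2.95 ± 0.243 FPKM and from 1.37 ± 0.135 to 1.90 ± 0.0815. They stood at 3.42 ± 0.575 and 2.69 ± 0.126 FPKM in NSC and at 2.32 ± 0.141 and 2.88 ± 0.115 in Glioblastoma, and 51.8% of Setd1a exon length is shared with Gm49388 on the same strand, listed at 0. Of 13 subunits that these enzymes use (COMPASS), 8 rose in MIM-Astrocytes and none fell, and 1 was higher and 2 lower than in NSC. The shares of all genes tested were 34.8% and 26.6% against Astrocytes and 31.0% and 24.9% against NSC. Psip1, which tethers MLL to chromatin, rose from 36.9 ± 0.735 to 75.6 ± 6.52 FPKM and Wdr82, a subunit of the SETD1 complexes, from 31.03 ± 3.65 to 54.0 ± 1.22.

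Among the enzymes tied to transcription, Nsd1, an H3K36 dimethylase, rose from 14.5 ± 0.684 to 27.1 ± 1.07 FPKM in MIM-Astrocytes (log2 0.86, SE 0.05, adjusted p = 2.64e-07) and had 29.6 ± 1.58 in NSC and 28.9 ± 0.776 in Glioblastoma. Setd2, the H3K36 trimethylase, had 14.7 ± 0.941, 21.6 ± 1.90, 22.4 ± 1.36 and 19.2 ± 1.21 FPKM in Astrocytes, MIM-Astrocytes, NSC and Glioblastoma. Dot1l, the H3K79 enzyme, had 3.48 ± 0.694, 4.47 ± 0.457, 5.72 ± 0.493 and 6.12 ± 0.505. Its call in MIM-Astrocytes (adjusted p = 0.0455) was lost without any 1 of 9 of the 12 libraries (adjusted p up to 0.158). It was also lost under each of the 4 other scalings. Of 17 tested lysine methyltransferases outside the 40, 8 rose in MIM-Astrocytes and 2 fell (all genes tested: 34.8% and 26.6%). Nsd2, a paralogue of Nsd1, went from 16.1 ± 1.42 to 49.9 ± 4.75 FPKM (log2 1.57, SE 0.08, adjusted p = 4.25e-08) and Smyd2, which methylates H3K36 and non-histone proteins, from 8.97 ± 1.03 to 24.7 ± 1.45.

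The demethylases were the class in which MIM-Astrocytes and NSC differed most often: 15 of 16 were lower in MIM-Astrocytes and none higher, with a median log2 of -0.43, while 5 of 16 lysine methyltransferases were lower and 2 higher, with a median of -0.10. Of all genes tested 24.9% were lower and 31.0% higher in this comparison, and the difference between the classes was not tested. Markers of other cell types moved in this comparison too: 4 of 5 tested neuron markers were lower in MIM-Astrocytes than in NSC and none higher, as were 7 of 7 oligodendrocyte lineage markers, while 10 of 12 astrocyte markers were higher and 1 lower. The 11 neuron markers with a value summed to 172 to 194 FPKM in MIM-Astrocytes and 292 to 322 in NSC, most of it Map2 (178 and 286 FPKM on average), and the 9 oligodendrocyte markers to 95.9 to 103 and 161 to 188. None of these genes was listed at 0 in either group, and their part in the demethylase calls was not tested. Kdm2b, the sixteenth, also had a negative difference that did not pass (log2 -0.24, SE 0.12, adjusted p = 0.104), though it did under quantile normalization (adjusted p = 0.0446) and with a common protein-coding total (adjusted p = 0.0477). Under every one of the 4 other scalings 10 of the 15 were called. The call of Kdm2a was lost without NSC replicate 2 or MIM-Astrocytes replicate 1 (adjusted p up to 0.0871). Against Astrocytes, NSC had 15 of 16 demethylases higher, with a median log2 of 0.83, and MIM-Astrocytes had 9 higher and 2 lower, with a median of 0.17. All genes tested gave 37.7% higher and 33.4% lower in NSC, and 34.8% and 26.6% in MIM-Astrocytes. Of 8 tested demethylases outside the 40, 3 were higher and 2 lower in MIM-Astrocytes than in NSC.

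**Figure D4:**
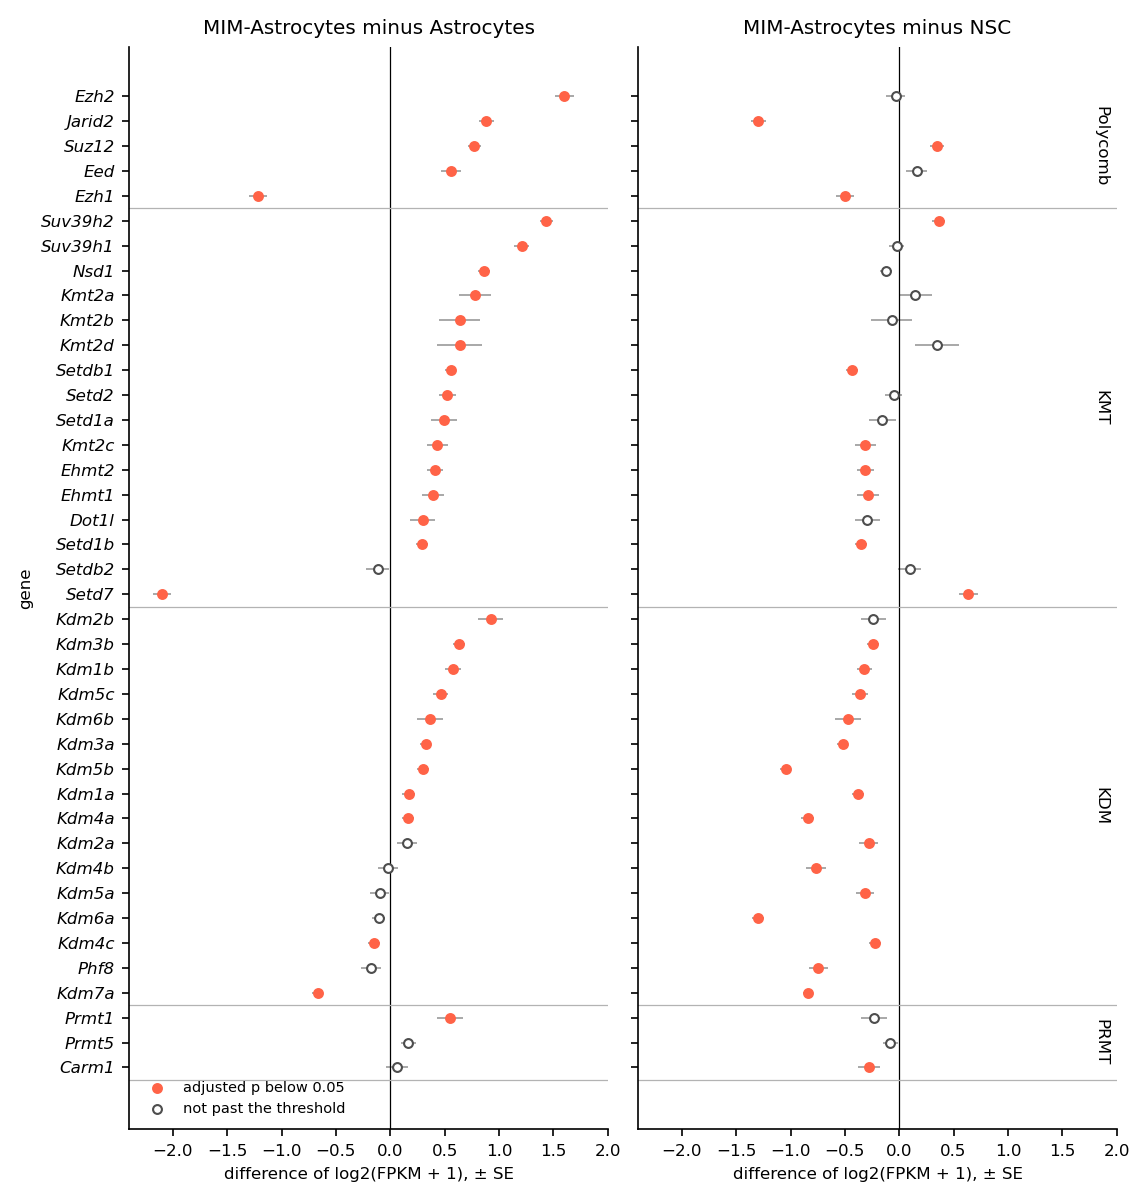
Difference of log2 of FPKM plus 1, with its SE, between MIM-Astrocytes and Astrocytes (left) and between MIM-Astrocytes and NSC (right) for the 40 genes by class, filled where the adjusted p is below 0.05. On the right 15 of 16 demethylases lie below 0 and are filled, while 9 of 16 lysine methyltransferases are open. Of all genes tested 55.9% were called in that comparison.

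Kdm5b, a demethylase of H3K4 trimethylation (ENSMUSG00000042207.17, chromosome 1, 134560171 to 134635285, plus strand), had 16.5, 15.5 and 16.1 FPKM in Astrocytes, 20.3, 19.4 and 20.2 in MIM-Astrocytes, 41.8, 44.7 and 40.6 in NSC and 19.8, 18.4 and 18.1 in Glioblastoma. Every NSC library was above every other library, and the other groups lay close together. Kdm5b was 2.12-fold lower in MIM-Astrocytes than in NSC (log2 -1.05, SE 0.05, adjusted p = 1.06e-07) and 2.25-fold lower in Glioblastoma (log2 -1.13, SE 0.05, adjusted p = 2.06e-08). Its rise in MIM-Astrocytes over Astrocytes was small (log2 0.30, SE 0.05, adjusted p = 0.000543) and became -0.02 with a common total. Kdm5a, its paralogue, had 31.1 ± 1.51, 29.0 ± 2.35, 36.4 ± 4.16 and 39.2 ± 1.36 FPKM in Astrocytes, MIM-Astrocytes, NSC and Glioblastoma. Its difference between MIM-Astrocytes and Astrocytes did not pass the test (log2 -0.099, adjusted p = 0.344), and was called lower under median-of-ratios scaling, quantile normalization, a common total and array weights. Its call in NSC against Astrocytes (adjusted p = 0.0449) was lost without any 1 of 9 libraries (adjusted p up to 0.170).

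Demethylases of H3K27 showed a similar peak in NSC. Kdm6a, also called UTX (ENSMUSG00000037369.17, chromosome X, 18162575 to 18279936, plus strand), was at 17.1, 16.8 and 16.3 FPKM in Astrocytes, 15.4, 15.6 and 15.4 in MIM-Astrocytes, 39.3, 39.4 and 39.6 in NSC and 8.41, 8.86 and 7.35 in Glioblastoma. No 2 groups overlapped, but the difference between Astrocytes and MIM-Astrocytes did not pass the test (log2 -0.11, SE 0.06, adjusted p = 0.132). Kdm6a was called lower in MIM-Astrocytes under median-of-ratios scaling (log2 -0.21, adjusted p = 0.0135), quantile normalization (log2 -0.18, adjusted p = 0.0480) and a common total (log2 -0.43, adjusted p = 0.00691), with array weights (adjusted p = 0.0115) and without Glioblastoma replicate 3 (adjusted p = 0.0427), and not with a common protein-coding total (adjusted p = 0.185). Kdm6a was 2.55-fold lower in MIM-Astrocytes than in NSC (log2 -1.30, SE 0.06, adjusted p = 5.05e-08) and 4.80-fold lower in Glioblastoma than in NSC (log2 -2.14, SE 0.06, adjusted p = 4.54e-10). Kdm6b, the inducible JMJD3 (ENSMUSG00000018476.7, chromosome 11), was near the low end at 2.11, 1.31 and 1.64 FPKM in Astrocytes, 2.81, 2.03 and 2.53 in MIM-Astrocytes, 4.01, 3.37 and 3.99 in NSC and 2.32, 2.70 and 2.38 in Glioblastoma. Only NSC stood apart, and MIM-Astrocytes were below it (log2 -0.47, SE 0.12, adjusted p = 0.00638). Against Astrocytes, which MIM-Astrocytes overlapped, the call of Kdm6b (log2 0.37, SE 0.12, adjusted p = 0.0207) was lost without Astrocytes replicate 2 or 3 or MIM-Astrocytes replicate 1 or 3 (adjusted p up to 0.0768). Its call in Glioblastoma against Astrocytes was lost without Glioblastoma replicate 2 or Astrocytes replicate 2 (adjusted p up to 0.0551).

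Kdm6a, Kdm5c, Phf8 and Suv39h1 lie on the X chromosome, and genes that track the sex chromosomes differed between the groups. Xist, the RNA of the inactive X, stood at 22.4 ± 3.44 FPKM for Astrocytes, 29.4 ± 3.73 for MIM-Astrocytes, 103 ± 10.99 for NSC and 0.140 ± 0.0528 for Glioblastoma. Of the Y-linked genes, Uty had 11.1 ± 1.36, 12.4 ± 1.25, 7.73 ± 0.396 and 3.68 ± 0.582 FPKM in the same order, and Eif2s3y 28.1 ± 3.73, 28.0 ± 0.161, 18.7 ± 0.984 and 12.1 ± 0.502. Ddx3y had 15.1 ± 1.52, 14.4 ± 0.746, 6.91 ± 0.388 and 5.71 ± 0.182, and Kdm5d 9.40 ± 0.415, 10.6 ± 0.0774, 9.10 ± 1.04 and 4.59 ± 0.241. The Y-linked genes were thus present in every group, with Xist near 0 in Glioblastoma. Kdm6a and Kdm5c are known to escape X inactivation in part. Like Xist, Kdm6a was highest in NSC and lowest in Glioblastoma, whereas Kdm5c, a demethylase of H3K4 (ENSMUSG00000025332.14, chromosome X), did not: it had 14.9, 14.8 and 15.5 FPKM in Astrocytes, 19.8, 21.02 and 22.6 in MIM-Astrocytes, 28.1, 28.3 and 25.9 in NSC and 29.0, 24.1 and 26.4 in Glioblastoma. NSC and Glioblastoma overlapped for Kdm5c, and both lay above MIM-Astrocytes and Astrocytes. Phf8, a demethylase of H3K9 and H4K20, had 8.63 ± 1.11, 7.49 ± 0.728, 13.2 ± 0.635 and 9.85 ± 0.519 FPKM in Astrocytes, MIM-Astrocytes, NSC and Glioblastoma. The part of sex in these 4 genes was not tested.

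**Figure D5:**
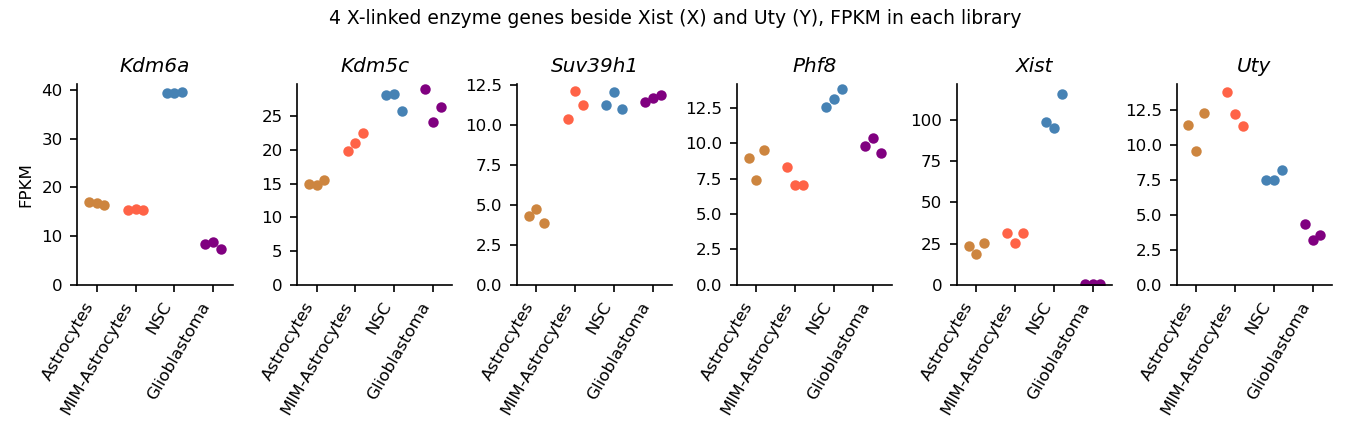
FPKM in each library (points, by group) of the X-linked enzyme genes Kdm6a, Kdm5c, Suv39h1 and Phf8, beside Xist on the X and Uty on the Y chromosome. Kdm6a and Xist are both highest in NSC (39.4 ± 0.119 and 103 ± 10.99 FPKM) and lowest in Glioblastoma, and Uty is present in all 12 libraries.

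Of the H3K36 demethylases, Kdm2b, which brings a PRC1 variant to CpG islands (ENSMUSG00000029475.17, chromosome 5, 122870665 to 122989823, minus strand), had 6.15, 5.07 and 7.80 FPKM in Astrocytes, 12.3, 13.2 and 12.9 in MIM-Astrocytes, 14.2, 16.8 and 15.0 in NSC and 24.0, 22.9 and 24.7 in Glioblastoma. The groups did not overlap. Kdm2b rose 2.02-fold in MIM-Astrocytes (log2 0.93, SE 0.12, adjusted p = 5.39e-05) and was 3.76-fold higher in Glioblastoma than in Astrocytes (log2 1.78, SE 0.12, adjusted p = 1.56e-07). Its paralogue Kdm2a, at 20.5 ± 1.68, 23.0 ± 2.22, 28.1 ± 2.49 and 24.6 ± 1.41 FPKM in the same order of groups, did not pass the test in MIM-Astrocytes against Astrocytes (adjusted p = 0.164), and did with array weights (log2 0.34, adjusted p = 0.000426).

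The H3K9 demethylases were mostly lower in MIM-Astrocytes than in NSC and, apart from Kdm3b, had not risen much from Astrocytes. Kdm4a had 16.6 ± 0.366 FPKM for Astrocytes, 18.8 ± 0.910 for MIM-Astrocytes, 34.4 ± 2.51 for NSC and 21.6 ± 0.572 for Glioblastoma, and was below NSC by 0.84 on the log2 scale in MIM-Astrocytes (SE 0.06, adjusted p = 1.09e-06). Kdm4b had 12.1 ± 0.500, 11.98 ± 1.54, 21.04 ± 1.97 and 17.1 ± 1.12 FPKM in that order of groups, and Kdm4c 11.3 ± 0.0428, 10.1 ± 0.482, 12.01 ± 0.764 and 7.88 ± 0.373. The calls of Kdm4a (higher, adjusted p = 0.0339) and Kdm4c (lower, adjusted p = 0.0402) in MIM-Astrocytes against Astrocytes were lost without any 1 of 5 and of 7 libraries (adjusted p up to 0.107 and 0.125). The Kdm4a call was also lost under each of the 4 other scalings, and the Kdm4c call under none of them. Kdm7a, which acts on H3K9 and H3K27, fell in MIM-Astrocytes to 4.62 ± 0.178 FPKM, from 7.93 ± 0.167 in Astrocytes (log2 -0.67, SE 0.05, adjusted p = 6.01e-07), next to 9.05 ± 0.304 in NSC and 8.61 ± 0.385 in Glioblastoma. Kdm3a, an H3K9 demethylase induced by hypoxia, had 35.2 ± 1.17, 44.3 ± 1.70, 64.0 ± 1.32 and 43.3 ± 1.94 FPKM in Astrocytes, MIM-Astrocytes, NSC and Glioblastoma. Its relative Kdm3b had 9.68 ± 0.376, 15.6 ± 0.612, 18.52 ± 0.679 and 8.12 ± 0.547, with 24.6% of its exon length opposite Gm26538. Over Astrocytes, MIM-Astrocytes had more Kdm3b (log2 0.63, SE 0.06, adjusted p = 3.99e-06) and Kdm3a (log2 0.325, SE 0.05, adjusted p = 0.000253, a call lost under quantile normalization and a common total). The calls of Kdm3b (log2 -0.238) and Kdm4c (log2 -0.223) below NSC were lost with a common total.

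The LSD1 family genes Kdm1a and Kdm1b moved apart only in Glioblastoma against Astrocytes. There Kdm1a was lower (log2 -0.39) and Kdm1b higher (log2 0.63, a call lost with a common total). In each other comparison they were called in the same direction. Kdm1a (LSD1), the catalytic subunit of CoREST, had 36.7 ± 2.01 FPKM in Astrocytes, 41.3 ± 1.34 in MIM-Astrocytes, 27.7 ± 1.65 in Glioblastoma and 54.0 ± 1.41 in NSC. It was lower in Glioblastoma than in NSC (log2 -0.94, SE 0.06, adjusted p = 1.74e-07), and its call in MIM-Astrocytes against Astrocytes (log2 0.17, adjusted p = 0.0264) was lost without any 1 of 4 libraries (adjusted p up to 0.0894). The latter call was also lost under each of the 4 other scalings. Kdm1b (LSD2) rose from 3.34 ± 0.226 to 5.47 ± 0.436 FPKM in MIM-Astrocytes (log2 0.58), with 7.07 ± 0.349 in NSC and 5.72 ± 0.464 in Glioblastoma. Of its exon length 9.2% lies opposite Dek, whose mean over the libraries was 38.6 FPKM. Of the demethylases outside the 40, Hr, a JmjC corepressor of nuclear receptors, fell from 7.38 ± 0.429 to 0.248 ± 0.0419 FPKM in MIM-Astrocytes (log2 -2.75, SE 0.06, adjusted p = 8.23e-11). Jmjd1c, a relative of Kdm3a, rose from 13.2 ± 1.05 to 41.9 ± 2.07 (log2 1.60, SE 0.06, adjusted p = 6.35e-09) and stood at 70.6 ± 2.38 in NSC. In all 3 of 8 rose and 2 fell, near the 34.8% and 26.6% of all genes tested.

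The arginine methyltransferases were highest in Glioblastoma. Prmt1, which makes most asymmetric dimethylarginine (ENSMUSG00000109324.2, chromosome 7, 44975989 to 44986568, minus strand), had 32.1, 31.8 and 28.7 FPKM in Astrocytes, 37.1, 49.8 and 51.6 in MIM-Astrocytes, 56.2, 58.1 and 48.1 in NSC and 66.7, 71.0 and 73.5 in Glioblastoma. MIM-Astrocytes spread widely and overlapped NSC, while Astrocytes and Glioblastoma stood apart at the ends. Prmt1 rose in MIM-Astrocytes (log2 0.55, SE 0.12, adjusted p = 0.00246), a call lost with a common total. Prmt5, which makes symmetric dimethylarginine (ENSMUSG00000023110.12, chromosome 14, 54507187 to 54517525, minus strand), had 11.8, 12.5 and 11.01 FPKM in Astrocytes, 13.4, 13.5 and 13.0 in MIM-Astrocytes, 14.7, 15.3 and 12.6 in NSC and 23.8, 23.3 and 22.6 in Glioblastoma. It was 1.64-fold higher in Glioblastoma than in NSC (log2 0.68, SE 0.07, adjusted p = 9.52e-06) and missed the threshold in MIM-Astrocytes against Astrocytes (log2 0.17, SE 0.07, adjusted p = 0.0639). That difference was called with a common protein-coding total (adjusted p = 0.0365), with array weights (0.00411), with a replicate block (0.0267) and without NSC replicate 3 or Astrocytes replicate 2 (0.0181 and 0.0380), and was -0.15 with a common total (adjusted p = 0.230). Carm1, the coactivator enzyme that methylates H3R17 (ENSMUSG00000032185.15, chromosome 9), had 10.8, 9.32 and 9.74 FPKM in Astrocytes, 8.69, 11.6 and 11.2 in MIM-Astrocytes, 12.6, 12.4 and 13.5 in NSC and 16.9, 16.7 and 14.5 in Glioblastoma. Astrocytes and MIM-Astrocytes overlapped for Carm1 (log2 0.06, SE 0.10, adjusted p = 0.644). Its exons lie opposite those of Yipf2 over 21.1% of their length. Of 5 other arginine methyltransferases tested, 4 rose in MIM-Astrocytes and 1 fell, and of 3 partners of Prmt5 1 rose (Clns1a, which hands Prmt5 its Sm protein substrates, from 22.1 ± 1.63 to 36.3 ± 2.18 FPKM). Of all genes tested 34.8% rose and 26.6% fell there.

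Calls in Glioblastoma against NSC differed by class, where 44.8% of all genes tested were higher and 25.1% lower. All 3 arginine methyltransferases were higher, but Prmt1 and Carm1 lost that call under each of the 4 other scalings. Of the demethylases 11 of 16 were lower and Kdm2b was higher, with a median log2 of -0.43. Of the lysine methyltransferases 4 were higher (Suv39h2, Setdb2, Setdb1, Setd7) and 3 lower (Kmt2c, Setd1a, Setd2), and of the Polycomb genes Suz12 and Eed were higher and Jarid2 lower. The 11 demethylases were lower under each of the 4 other scalings, and of the genes called higher Suz12, Suv39h2, Setdb2 and Prmt5 were called under each. Suz12 was 2.14-fold higher (log2 1.04, SE 0.06, adjusted p = 1.74e-07) and Suv39h2 2.71-fold (log2 1.14, SE 0.06, adjusted p = 5.72e-08), and Kdm3b was lower by 1.10 on the log2 scale (SE 0.06, adjusted p = 4.74e-08). Calls near the threshold were lost when 1 library was left out: Carm1 without Glioblastoma replicate 1 or 2 or NSC replicate 1 or 2 (adjusted p up to 0.0749), Prmt1 without replicate 3 of either group (up to 0.0685), Kdm4b without replicate 2 of either group (up to 0.0874), Setd2 without replicate 1 or 3 of either group (up to 0.112) and Setd7 without Glioblastoma replicate 3 or NSC replicate 1 or 3 (up to 0.136).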

How the data were processed

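The authors deposited 1 gene table per library with FPKM values made by Cufflinks on GRCm38, per the submitters' processing notes, each with an interval and a status per the file headers. The version, the aligner, the strandedness and any filter are not given in the sources used here. The tables hold no counts, so depth is unknown. The deposited interval reached 3.4% to 36.5% (median 7.8%) of a value for the 40 genes, against a median coefficient of variation between replicates of 6.5%. Values of 45 identifiers on more than 1 line were added. Positions and biotypes come from GENCODE M21.

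Genes at 1 FPKM or more in at least 3 libraries and with status OK in all 12 (16982) were tested with limma 3.58.1 in R 4.3.3 on log2 of FPKM plus 1, a scale that understates the change of low genes. FPKM were taken as deposited, with no scaling between libraries. The fit had 1 mean per group over all 12 libraries and a variance trend. Each of 5 comparisons was adjusted over all genes tested by Benjamini and Hochberg, two-sided, and a gene was called at an adjusted p below 0.05. The script was tested on simulated data. The software was Python 3.11.15 (NumPy 2.4.6, pandas 2.3.3, and matplotlib 3.10.9 for the plots).

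The 40 genes and the other lists were chosen with earlier results of these data known. Each member is given with its group means or its library values. Values in every library are given for Ezh1, Ezh2, Setd7, Suv39h1, Suv39h2, Kdm6a, Kdm6b, Kdm5c, Prmt1, Prmt5 and Carm1, and for the 10 members with the largest difference in any comparison. From other lists up to 3 genes each way with the smallest p in MIM-Astrocytes against Astrocytes could be named. Replicate numbers are not said to pair libraries, and deviations of same-numbered libraries of 2 groups correlated at -0.058 to 0.097. The alternatives tried were a pseudocount of 0.1 or 0.5, all genes without the filter or those with 5 FPKM or more on average, scaling by the median of ratios, quantile normalization, a common FPKM total, a common protein-coding total, the highest line of an identifier, array weights, only the 6 libraries compared, a replicate block and leaving out each library.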

Additional observations from a re-analysis of the deposited data

How the results depend on the processing

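Scaling was the choice that moved the results. With a common FPKM total, members called higher and lower were 10 and 9 in MIM-Astrocytes against Astrocytes, 20 and 4 in NSC against Astrocytes, 12 and 13 in Glioblastoma against Astrocytes (where the median of the 40 turned to -0.079), 3 and 15 in MIM-Astrocytes against NSC and 5 and 20 in Glioblastoma against NSC. Median-of-ratios scaling left 17 higher in Glioblastoma against Astrocytes. In Glioblastoma against NSC it gave 5 higher and 24 lower, quantile normalization 4 and 26, and a common protein-coding total 4 and 25. Array weights gave 7 lower in MIM-Astrocytes against Astrocytes. With a replicate block the counts were 28 and 3, 35 and 2, 29 and 6, 3 and 21, and 10 and 15, in the order of the 5 comparisons above, and since the numbers do not pair the libraries the block is given only here. Leaving out 1 library at a time gave 23 to 28 higher and 3 to 4 lower in MIM-Astrocytes against Astrocytes, 34 to 35 and 2 to 3 in NSC against Astrocytes, 26 to 31 and 6 in Glioblastoma against Astrocytes, 3 and 20 to 25 in MIM-Astrocytes against NSC, and 8 to 10 and 14 to 16 in Glioblastoma against NSC. Of 154 calls among 200 member comparisons, 87 kept their call and direction in all 24 alternatives and 118 in all but the common total, and 19 were lost without at least 1 library. Outside the text above these were Ehmt1, Kmt2c and Carm1 in MIM-Astrocytes against NSC (adjusted p up to 0.131, 0.0706 and 0.131) and Kdm2a in Glioblastoma against Astrocytes (up to 0.104). The cause was not tested. Positive log2 differences called under either setting turned negative as follows, while sign changes with no call under either are left out. In MIM-Astrocytes against Astrocytes, with a common total Kdm1a -0.162, Kdm3a -0.005, Kdm4a -0.160 and Kdm5b -0.019. In NSC against Astrocytes, with a common total Kdm4c -0.295, Kdm5a -0.174, Kdm7a -0.190, Prmt5 -0.123 and Carm1 -0.031. In Glioblastoma against Astrocytes, with a common total Setd2 -0.219, Setdb2 -0.070, Ehmt1 -0.088, Kdm2a -0.342, Kdm3a -0.312, Kdm4a -0.232, Kdm4b -0.115, Kdm5a -0.277, Kdm5b -0.370, Kdm6b -0.035, Kdm7a -0.449 and Phf8 -0.383. There, under median-of-ratios scaling Kdm2a -0.038, Kdm3a -0.003, Kdm5b -0.070 and Kdm7a -0.165. There, under quantile normalization Kdm2a -0.017, Kdm3a -0.039 and Kdm5b -0.056. In Glioblastoma against NSC, with a common total Setdb1 -0.027 and Suv39h1 -0.171. There, under median-of-ratios scaling Setd7 -0.003, Setdb1 -0.047, Suv39h1 -0.192 and Ehmt2 -0.148. There, under quantile normalization Setd7 -0.077, Setdb1 -0.128, Suv39h1 -0.247, Ehmt2 -0.263 and Kdm5a -0.220. There, with a common protein-coding total Setd7 -0.077, Setdb1 -0.122, Suv39h1 -0.265, Ehmt2 -0.226 and Kdm5a -0.202.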
